A study of Mus musculus with 32 samples.

Results

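Cadherins, integrins, the epithelial adhesion molecule gene Epcam and the integrin ligand gene Npnt were followed through mouse kidneys in which Cre switches on a Wilms tumor-associated mutant of ENL, the chromatin reader encoded by Mllt1. Members were taken by name: every gene whose symbol is Cdh followed by a number, Itga followed by a number (with or without b), Itgav, or Itgb1 to Itgb8, together with Epcam and Npnt. The rule found 46 of the 55806 genes counted: 23 cadherins, 13 integrin alpha subunits, 8 integrin beta subunits, Epcam and Npnt. It is broader than the classical cadherins, because 18 of the 23 are classical (5 type I and 13 type II) and 5 (Cdh13, Cdh16, Cdh17, Cdh23 and Cdh26) are not.

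The groups were E18.5 kidneys of Six2-TGC tg/+;Enl +/+ (n = 2), Six2-TGC tg/+;Enl T1/+ (n = 2) and Six2-TGC tg/+;Enl T3/+ (n = 2) embryos, and of Foxd1 GC/+;Enl +/+ (n = 3) and Foxd1 GC/+;Enl T1/+ (n = 3) embryos. Cells sorted for the Cre reporter tdTomato came from Six2-TGC tg/+ kidneys at either E14.5 or E18.5 (3 libraries for each genotype and stage) and from Foxd1 GC/+ kidneys at E18.5 (4 libraries for each genotype), with Enl +/+ (WT) or Enl T1/+. T1 and T3 are small in-frame changes in the YEATS domain of ENL, carried on 1 floxed allele and driven by the gene's own promoter once Cre has acted. Six2-TGC is a BAC transgene that drives a GFP-Cre fusion in nephron progenitors, so the reporter marks them and the nephron epithelium that descends from them. Foxd1 GC is a GFP-Cre knock-in in stromal progenitors that removes the function of that Foxd1 allele. Every WT and mutant group carries the driver of its lineage, and every sorted group also carries the LSL-tdT reporter. E14.5 kidneys were dissociated with trypsin and E18.5 kidneys with collagenase, so stage and dissociation cannot be told apart. Sorted cells are the whole tdTomato-positive fraction of a kidney, so in bulk RNA fewer cells of a type and less RNA per cell cannot be told apart.

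Cadherins join cells to each other. Type I cadherins such as E-cadherin (Cdh1), N-cadherin (Cdh2), P-cadherin (Cdh3) and R-cadherin (Cdh4) bind preferentially like to like, and their tails hold the catenins. Type II cadherins are a larger group, several of which are best known from neurons. Integrins join cells to matrix as pairs of 1 alpha and 1 beta subunit, and the pair decides the ligand. When nephron progenitors turn from mesenchyme into tubule they lose mesenchymal cadherins such as Cdh11 and pass through a stage rich in Cdh6 and Cdh4. Tubules later express epithelial cadherins such as Cdh1 and Cdh16 (kidney-specific cadherin), at levels that differ between segments. Integrin alpha8 beta1 on the mesenchyme binds nephronectin (Npnt) laid down by the ureteric bud, and alpha3 beta1 and alpha6 beta1 anchor epithelium and podocytes to laminin.

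Mllt1 itself, whose counts do not separate the mutant from the WT transcript, ranged from 225 to 233 CPM (counts relative to each library's scaled total) in WT and from 200 to 208 in T1 sorted Six2 cells at E14.5. At E18.5 the corresponding ranges were 84.9 to 93.1 and 82.1 to 88.9. Libraries held 106005614 to 157266455 counts in whole Six2 kidneys, 76510702 to 137888792 in sorted Six2 cells and 67137194 to 79343015 in whole Foxd1 kidneys, but only 2557443 to 3508381 in sorted Foxd1 cells. Members below about 10 counts in the sorted Foxd1 libraries could therefore not be tested, and 30 of 46 passed the count filter there against 42 to 45 in the other comparisons between groups. The sources used here do not say whether libraries of a group came from separate animals, so p-values measure the spread between these libraries. Replicates of a group correlated at 0.974 to 0.994 (Pearson, across genes, 33 pairs). Other cell types moved with genotype in the sorted cells. At E18.5 the summed level of 12 macrophage markers was 40.1 to 43.3 CPM in WT and 113 to 130 CPM in T1 Six2 cells, that of 7 red cell markers 104 to 210 and 1550 to 2274 CPM, and that of 6 podocyte markers 2900 to 3393 and 209 to 262 CPM.

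The first comparison asked how the adhesion repertoire of WT Six2 descendants changed between E14.5 and E18.5. The epithelial cadherins Cdh1, Cdh6 and Cdh16 rose. Cdh2, Cdh4 and Cdh11, abundant at E14.5, were lower by less than 2-fold, and most integrin subunits rose. Cdh11 and Cdh4 were the leading cadherins at E14.5 per kb of exon, and Cdh6, Cdh16 and Cdh1 at E18.5. Members called at adjusted p below 0.01 and more than 2-fold (edgeR's quasi-likelihood test) numbered 23 higher and 5 lower at E18.5 of 45 tested, against 24.8% higher and 20.6% lower among all 25222 genes tested. The median log2 fold change was 1.53 over the tested members and 0.015 over all tested genes. By family, 9 of 13 alpha subunits rose and 1 fell, 5 of 8 beta subunits rose and none fell, and of 22 tested cadherins 7 rose and 4 fell. The WT libraries used here also serve as controls for the genotype comparisons below.

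Cdh1 read 35.5, 28.5 and 40.1 CPM in the E14.5 WT libraries and 169, 215 and 163 CPM at E18.5. The stages did not overlap, and the difference was 2.39 ± 0.179 (log2 fold change ± SE; adjusted p = 1.62e-08). Cdh16 went from 10.5, 12.1 and 19.9 to 208, 258 and 205 CPM (3.98 ± 0.229). Cdh6, a type II cadherin of the early nephron and proximal tubule, went from 96.5, 105 and 148 to 619, 668 and 571 CPM (2.41 ± 0.13), and Epcam from 31.1, 27.0 and 37.3 to 105, 119 and 103 CPM (1.77 ± 0.13). All 4 epithelial genes were higher in every E18.5 library than in any E14.5 library. The 3 cadherins most abundant at E14.5 were lower at E18.5. Cdh11 read 469, 523 and 424 CPM at E14.5 and 296, 313 and 362 CPM at E18.5, Cdh2 223, 204 and 198 against 127, 129 and 159 CPM, and Cdh4 337, 325 and 386 against 258, 269 and 279 CPM. None of these 3 reached the 2-fold limit (log2 differences of -0.54, -0.59 and -0.38, adjusted p at most 8.45e-05), although their libraries did not overlap between stages.

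Per kb of exon, Cdh11 held 32% of the summed cadherin level at E14.5 (53.0 ± 5.6 CPM per kb, SD, n = 3), ahead of Cdh4 (48.1 ± 4.4) and Cdh2 (25.9 ± 1.6), with Cdh1 at 7.59. The first 2 do not differ beyond their spread. At E18.5 Cdh6 came first (68.6 ± 5.4 CPM per kb, 24.6%), then Cdh16 (59.0 ± 7.8, 21.1%) and Cdh1 (39.9 ± 6.2, 14.3%), with Cdh4 (37.0 ± 1.5) and Cdh11 (36.3 ± 3.9) within the spread of Cdh1. P-cadherin, Cdh3, was higher by 0.63 (adjusted p = 0.00113), under the limit. The other cadherin calls were of low genes. Cdh15 (M-cadherin of muscle precursors) fell from 3.59, 3.39 and 3.35 to 0.505, 0.293 and 0.625 CPM, while Cdh22 fell by 1.02, Cdh26 by 2.98 and Cdh12 by 3.34 on the log2 scale. Cdh22 dropped under 2-fold with DESeq2 or RLE size factors (-0.89 in both) and without E14.5 WT replicate 3, E18.5 WT replicate 1 or 2, or any E18.5 T1 library that shares the fit, with changes from -0.80. Cdh5, the endothelial VE-cadherin, rose by 4.47 ± 0.512 to 8.13, 8.20 and 9.11 CPM, and of 10 endothelial markers 6 rose with it and 1 fell, whose part in the result was not tested. Cdh20 (2.51, adjusted p = 0.00767) lost its call in 7 of 12 leave-one-out fits, at up to 0.0689 without E18.5 WT replicate 1, and Cdh24 rose by 1.63. Cdh17 had no count in the 3 E14.5 libraries and 34 counts over the 3 at E18.5, at least 19.8-fold higher against a floor of 3 counts over the group, a call lost when any of the 6 WT libraries was left out (adjusted p up to 0.0218 against the limit of 0.01).

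**Figure D1:**
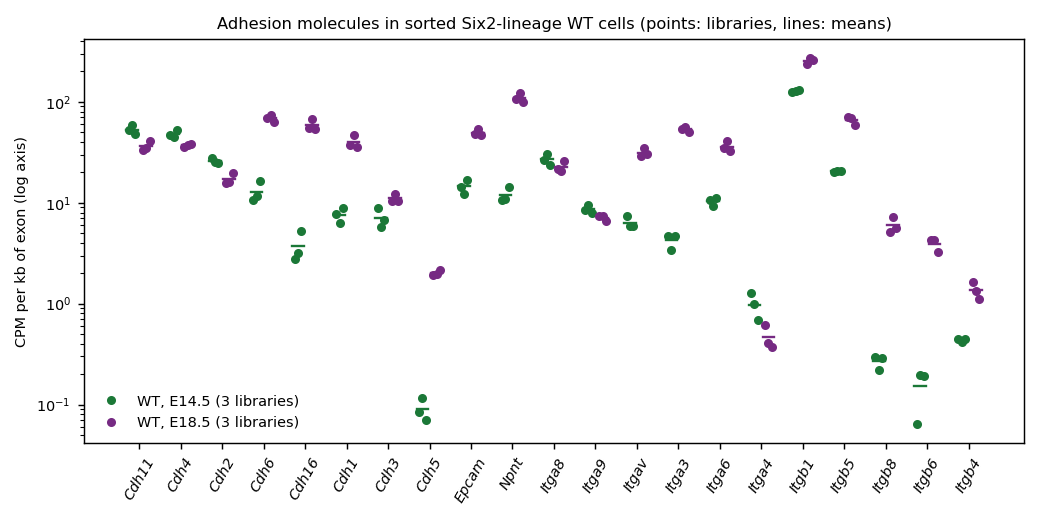
Level of selected cadherins, Epcam, Npnt and integrins in sorted Six2-lineage WT cells, in CPM per kb of exon on a log axis; each point is a library and each line the mean of 3 libraries at E14.5 (green) or E18.5 (purple). Cdh16, Cdh6 and Cdh1 sit higher at E18.5 and Cdh11, Cdh4 and Cdh2 lower, while Itgb1 is the highest integrin at both stages.

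Among the integrins, Itga3, whose product pairs with beta1 as a laminin receptor, became the leading alpha subunit per kb. It read 26.5, 19.5 and 26.6 CPM at E14.5 and 307, 318 and 286 CPM at E18.5 (3.65 ± 0.108, adjusted p = 1.03e-12). Itga6, the other laminin receptor subunit, went from 95.4, 83.4 and 100 to 317, 367 and 291 CPM (1.80 ± 0.12), and Itgav from 78.9, 62.5 and 63.1 to 310, 376 and 325 CPM (2.31 ± 0.101). The stages did not overlap for any of the 3. Itga8, the nephronectin receptor subunit, read 196, 225 and 176 CPM against 161, 152 and 191 CPM, with overlapping libraries (-0.25 ± 0.0899, adjusted p = 0.0234). Its share of the summed alpha level was 37.3% at E14.5 (27.0 ± 3.3 CPM per kb), the first of the family, and at E18.5 Itga3 came first with 28.9% (53.2 CPM per kb), followed by Itga6 (36.0), Itgav (31.4) and Itga8 (22.8). The collagen receptor subunits Itga1, Itga2, Itga10 and Itga11 rose by 4.97, 5.01, 3.59 and 1.54. However, 33.5% of the exon length of Itga10 overlaps another gene on the same strand, where counts cannot separate the pair. Itga4, which binds fibronectin and Vcam1, was the 1 alpha subunit that fell, from 17.9, 13.7 and 9.52 to 8.61, 5.75 and 5.15 CPM (-1.07 ± 0.292, adjusted p = 0.00428), and the call was lost without E14.5 WT replicate 1 (adjusted p = 0.0214), E18.5 WT replicate 2 (0.0257) or E18.5 WT replicate 3 (0.0299). It was also lost with DESeq2 (-0.94, adjusted p = 0.0137), with RLE size factors (-0.94, under 2-fold) and with the replicate block (-0.75, adjusted p = 0.145).

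Itgb1, the partner of most alpha subunits here, read 516, 523 and 534 CPM at E14.5 and 977, 1115 and 1047 CPM at E18.5, just under 2-fold. It held 85.5% of the summed beta level per kb at E14.5 and 76.6% at E18.5. Other partners of Itgav grew from low levels: Itgb6 from 0.452, 1.41 and 1.37 to 30.7, 30.2 and 23.2 CPM (4.70 ± 0.493), Itgb8 from 3.29, 2.41 and 3.19 to 56.4, 80.6 and 62.4 CPM (4.49 ± 0.165), and Itgb5 from 71.8, 72.7 and 73.7 to 249, 246 and 211 CPM (1.69 ± 0.0807). Beta6 and beta8 pairs bind and activate latent TGF-beta, and beta5 pairs bind vitronectin. Itgb4, the partner of Itga6 in hemidesmosomes, rose by 1.64, Itgb3 by 1.53 and Itga2b by 2.02, the platelet pair, and Itga7 by 5.94. Npnt rose from 53.5, 54.4 and 71.5 to 535, 609 and 497 CPM (3.19 ± 0.144, adjusted p = 5.7e-11). Among the genes that work with the members, 21 of 27 matrix ligands of integrins rose and 2 fell, 13 of 20 cytoplasmic integrin partners (talins, kindlins, parvins and their like) rose, 16 of 20 junction and polarity genes rose (median 2.32), and 4 of 12 catenins and cadherin partners rose, with none falling in the last 3 lists. Among all genes tested 24.8% rose and 20.6% fell between the stages. Other scalings moved the median of all genes in this comparison by 0.13 (RLE size factors) or -0.14 (library size alone), and under these Cdh11 read -0.41 and -0.68, Cdh2 -0.46 and -0.73 and Cdh4 -0.24 and -0.52.

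The second comparison asked what ENL T1 did in sorted Six2 cells at E14.5. Changes of Cdh11, Cdh2 and Cdh4 stayed under 1.5-fold, Cdh1 and 3 alpha subunits fell, and 4 type II cadherins that WT cells barely expressed rose. Of 44 members tested (Cdh17 and Cdh19 were too low), 4 rose and 4 fell at adjusted p below 0.05 and more than 1.5-fold, against 4.11% and 2.28% of all 22387 genes. The median log2 fold change was 0.0092 over the members and 0.0035 over all genes. All 4 that rose were type II cadherins, of 12 tested.

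Itga8 read 196, 225 and 176 CPM in WT and 96.3, 96.1 and 91.2 CPM in T1. The genotypes did not overlap and every T1 library was close to 1 level (-1.06 ± 0.0816, adjusted p = 0.000158). Its ligand gene Npnt read 53.5, 54.4 and 71.5 CPM in WT and was lower in every T1 library without passing the test (-0.40 ± 0.138, adjusted p = 0.102). Itga4 read 17.9, 13.7 and 9.52 CPM in WT and 1.42, 3.13 and 3.498 in T1 (-2.34 ± 0.341, adjusted p = 0.00343), again without overlap. Itga6 read 95.4, 83.4 and 100 CPM in WT and 51.7, 69.2 and 58.8 in T1 (-0.62 ± 0.107, adjusted p = 0.00721), a change that dropped under 1.5-fold without WT replicate 3 (-0.56) or T1 replicate 1 (-0.53). The summed alpha level per kb was 68.5 to 74.9 CPM per kb in WT and 56.5 to 57.9 in T1. Nephron progenitor markers fell in the same cells, 7 of 8 of them, and their part in the result was not tested.

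Cdh1 read 35.5, 28.5 and 40.1 CPM in WT and 13.3, 20.3 and 22.3 CPM in T1, with no overlap (-0.88 ± 0.192, adjusted p = 0.019, and 0.0534 without WT replicate 1). Epcam, the other epithelial surface gene, read 31.1, 27.0 and 37.3 CPM in WT and 25.8, 32.8 and 36.0 in T1, and the genotypes overlapped (0.00 ± 0.144). Cdh6 (0.40 ± 0.137, adjusted p = 0.103) and Cdh16 (0.13 ± 0.239) did not pass the test, nor did Cdh11 (-0.07 ± 0.0692) or Cdh2 (0.02 ± 0.0539). Cdh4 passed the p threshold with a difference under 1.5-fold (0.32 ± 0.0632, adjusted p = 0.012), and so did Itga9, the tenascin receptor subunit (0.47 ± 0.0746, adjusted p = 0.00472), and Itgb5 (-0.36 ± 0.0795, adjusted p = 0.02). Cdh3 (-0.50), Cdh5 (1.36), Itga3 (-0.35), Itgav (-0.12) and the beta subunits Itgb1 (-0.07), Itgb4 (-0.01), Itgb6 (-1.12) and Itgb8 (-0.47) did not pass. Of 9 tested genes known to drive or mark a mesenchymal state, 4 rose, namely Snai2 (1.77), Twist1 (1.52), Twist2 (1.56) and Vim (0.66), and the summed level of 11 stromal markers was 571 to 752 CPM in WT and 1135 to 2319 CPM in T1, with 9 of the 11 called higher and 1 lower. The part of stromal cells in these results was not tested.

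The type II cadherins that rose were near the detection limit in WT. Cdh7 read 0.0156, 0 and 0.0535 CPM in WT, 9 counts in all, and 1.69, 1.63 and 1.61 CPM in T1, 662 counts in all. The ratio of the summed levels was 72.8 (95% interval for counting error 38.1 to 160), and the fitted change was 6.14 ± 0.633 (adjusted p = 0.000687). Cdh8 read 0.507, 0.735 and 0.810 CPM in WT and 3.57, 2.86 and 3.63 in T1 (2.31 ± 0.22, adjusted p = 0.000464). Cdh20 read 0, 0.0642 and 0.0611 against 0.472, 0.761 and 0.467 CPM (3.73 ± 0.779, adjusted p = 0.0162), and Cdh9 0.133, 0.200 and 0.0459 against 0.712, 0.556 and 1.16 CPM (2.68 ± 0.536, adjusted p = 0.0134). All 4 genes were higher in every T1 library than in any WT library, but the call of Cdh20 was lost without T1 replicate 2 (adjusted p = 0.0621) and that of Cdh9 without T1 replicate 3 (0.0572). These cadherins are known mainly from the nervous system, and the summed level of 7 neural markers was 24.4 to 29.1 CPM in WT and 35.8 to 40.0 CPM in T1, with 2 of the 6 tested called higher. The part of neural cells was not tested.

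The third comparison took the same cells at E18.5. The epithelial cadherins that had risen in WT between the stages did not pass the test in T1, whereas Npnt and 5 of the 14 integrin subunits that had risen with them were lower. Those 5 were Itga1, Itga3, Itgb5, Itgb6 and Itgb8, while Itga11 was higher and the other 8 were not called. The rise and this comparison share the E18.5 WT libraries, which favors lower T1 values among members picked for rising. The corresponding share over all genes that rose was not computed. Of 42 members tested (Cdh9, Cdh12, Cdh19 and Cdh26 were too low), 8 rose and 7 fell, against 6.14% and 5.54% of all 22685 genes, with a median of 0.062 over the members and 0.015 over all genes. Of 19 tested cadherins 5 rose and none fell. Of 13 alpha subunits 2 rose and 3 fell, and of 8 beta subunits 1 rose and 3 fell.

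Cdh1 read 169, 215 and 163 CPM in WT and 193, 154 and 181 CPM in T1. The genotypes overlapped, and the difference was -0.05 ± 0.104 (adjusted p = 0.815). Epcam (0.05 ± 0.0804), Cdh6 (-0.02 ± 0.0792), Cdh16 (0.18 ± 0.11), Cdh2 (0.03 ± 0.0965) and Cdh11 (-0.08 ± 0.0888) likewise had overlapping libraries and did not pass the test, nor did Cdh3 (-0.17) or Cdh5 (-0.42). Cdh4 (0.20, adjusted p = 0.0272) and Itgb4 (0.48, adjusted p = 0.0484) were higher by less than 1.5-fold. Over the same cells 6 of 6 podocyte markers and 7 of 7 proximal tubule markers fell, the latter from a summed 1391 to 1877 CPM in WT to 452 to 493 CPM in T1, and 4 of 20 junction and polarity genes fell, namely Tjp1 (-0.63), Krt8 (-0.60), Esrp2 (-0.75) and Dsp (-0.62).

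Itgb5 fell most of the 7 members that fell. It read 249, 246 and 211 CPM in WT and 61.3, 57.3 and 61.4 CPM in T1, a difference of -1.97 ± 0.075 (adjusted p = 1.18e-09). The T1 libraries lay below the E14.5 WT libraries of the same gene, and its share of the summed beta level per kb was 19.8% in WT (66.3 CPM per kb) and 6.73% in T1 (16.9). Itgb6 read 30.7, 30.2 and 23.2 CPM in WT and 11.996, 9.45 and 12.4 in T1 (-1.31 ± 0.131, adjusted p = 8.79e-06). Itgb8 read 56.4, 80.6 and 62.4 against 45.6, 36.3 and 44.6 CPM (-0.65 ± 0.121, adjusted p = 0.00169), and fell by less than 1.5-fold without WT replicate 2 (-0.49) or T1 replicate 2 (-0.56). The 3 genes encode partners of Itgav, which itself overlapped between the genotypes (0.09 ± 0.0825). Itgb1 was lower in every T1 library but did not pass the test (-0.18 ± 0.0678, adjusted p = 0.0867). The summed beta level was 321 to 356 CPM per kb in WT and 235 to 263 in T1.

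Npnt read 535, 609 and 497 CPM in WT and 276, 216 and 243 CPM in T1 (-1.15 ± 0.094, adjusted p = 1.35e-06). Its receptor subunit Itga8 read 161, 152 and 191 CPM in WT and 86.4, 87.4 and 82.5 in T1 (-0.97 ± 0.0815, adjusted p = 1.83e-06). Neither gene had a T1 library within the WT range. Itga3 read 307, 318 and 286 against 178, 171 and 185.01 CPM (-0.76 ± 0.0645, adjusted p = 1.81e-06), and Itga1, a collagen receptor subunit, 159, 179 and 142 against 111, 91.2 and 97.7 CPM (-0.67 ± 0.0899, adjusted p = 0.000116). Itga6 did not pass the test (-0.25 ± 0.0957, adjusted p = 0.0829). Podocyte markers fell beside these genes, from 2900 to 3393 CPM in WT to 209 to 262 CPM in T1, and podocytes are known for alpha3 beta1 and nephronectin. Nephron progenitor markers fell too, 6 of 8 of them, from 1080 to 1394 CPM in WT to 405 to 515 CPM in T1, and Itga8 is known from that mesenchyme. The part of podocyte and progenitor number in the changes of Itga3, Npnt and Itga8 was not tested.

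**Figure D2:**
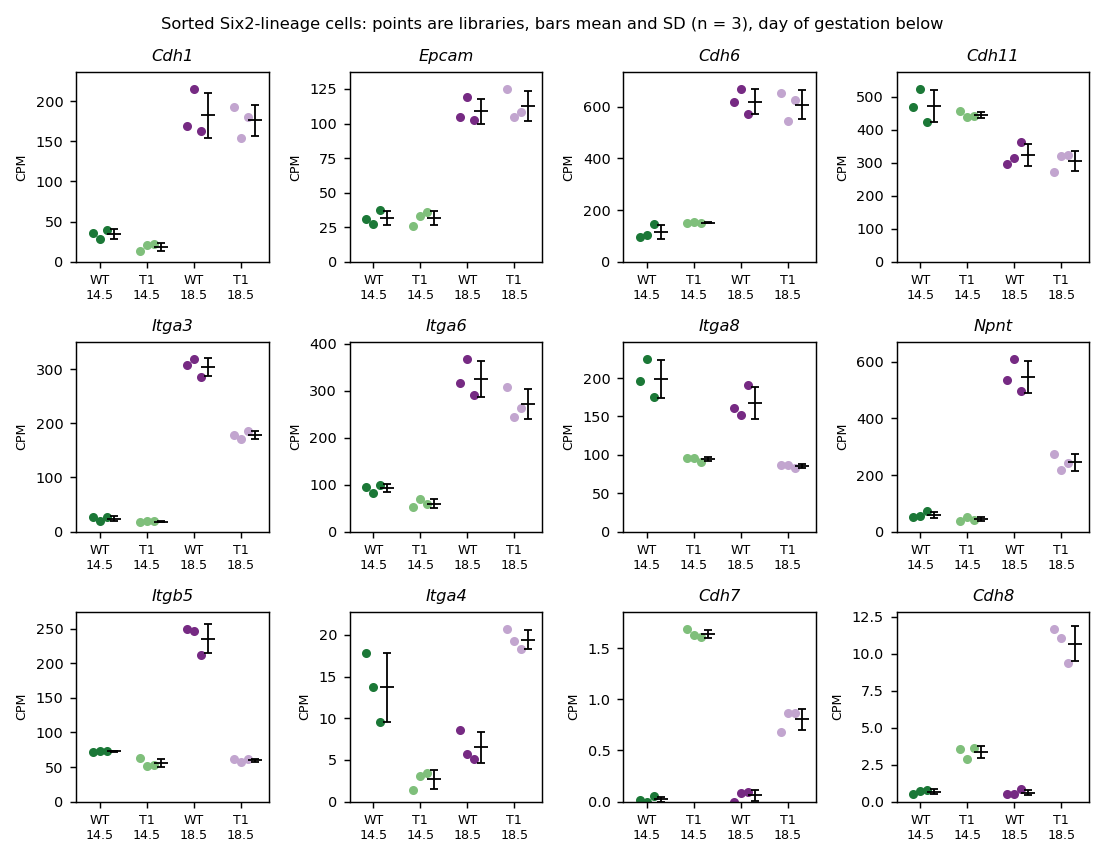
CPM of 12 members in each library of sorted Six2-lineage cells, by genotype and day of gestation; points are libraries and bars the mean with SD (n = 3). At E18.5 the WT and T1 libraries overlap for Cdh1, Epcam and Cdh6, whereas those of Itga3, Npnt and Itgb5 do not. Itga8 is lower in T1 at both stages, and Cdh7 and Cdh8 are near 0 in WT.

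The members that rose at E18.5 were cadherins and integrins with mean WT levels from 0.0628 CPM (Cdh7) to 18.9 CPM (Cdh24). Cdh7 read 0, 0.0891 and 0.0994 CPM in WT and 0.685, 0.865 and 0.866 in T1 (3.67 ± 0.65, adjusted p = 0.00115, 14 against 197 counts in all). As at E14.5, Cdh7 was below 10 counts in every WT library, so it could only be called higher. Cdh8 read 0.518, 0.496 and 0.823 against 11.7, 11.04 and 9.36 CPM (4.14 ± 0.203, adjusted p = 1.37e-08). Cdh23 (1.59, 1.53 and 1.45 against 3.48, 2.92 and 2.50 CPM) and Cdh24 (20.6, 18.2 and 18.001 against 30.3, 30.5 and 26.4 CPM) rose by 0.97 and 0.63, and Cdh20 by 1.58, a call that held in 1 of 6 leave-one-out fits, that without WT replicate 1 (adjusted p up to 0.158 in the others). Itgb2, the leukocyte beta subunit, read 0.114, 0.267 and 0.185 against 1.65, 1.33 and 0.852 CPM (2.76 ± 0.406, adjusted p = 0.000263), and Itga4 8.61, 5.75 and 5.15 against 20.7, 19.3 and 18.3 CPM (1.58 ± 0.164, adjusted p = 1.26e-05). Macrophage markers moved with both: 10 of 12 rose and none fell. Itga11, a collagen receptor subunit of fibroblasts, read 13.1, 11.1 and 11.6 against 25.2, 19.8 and 25.5 CPM (0.99 ± 0.116, adjusted p = 3.7e-05), and of 11 stromal markers 7 rose and 2 fell. In the separately sequenced sorted Foxd1 cells of E18.5 the mean of Itga11 was 2.83 CPM in WT and 4.14 CPM in T1. The part of macrophages and stromal cells in these changes was not tested.

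The start regions of 5 of these genes are printed here because their genes carry the results above. In T1 at E18.5 Npnt and Itgb5 were lower, Cdh7 and Cdh8 were higher, and Epcam was not called. RefSeq (GRCm38.p6) gave a promoter for 31 of the 46 members. Each run below is the 250 bases before the gene's most upstream RefSeq start, 5′ to 3′ on the gene's strand, in lower case, with every CACCTG or CAGGTG in capitals. That 6-base E-box, searched on both strands as the 2 spellings, is the class bound by Snail and Zeb repressors of Cdh1. The gene bodies are Npnt at chr3:132881745-132950291, Itgb5 at chr16:33829665-33949338, Epcam at chr17:87635979-87651129, Cdh7 at chr1:109982431-110140157 and Cdh8 at chr8:99024471-99416471. The windows are chr3:132950292-132950541 (minus strand) for Npnt, chr16:33829415-33829664 (plus) for Itgb5, chr17:87635729-87635978 (plus) for Epcam, chr1:109982650-109982899 (plus) for Cdh7 and chr8:99416472-99416721 (minus) for Cdh8. The gene bodies are those of GENCODE vM21, which begins Cdh7 farther upstream, so the Cdh7 window and its match lie inside that gene body.
Npnt: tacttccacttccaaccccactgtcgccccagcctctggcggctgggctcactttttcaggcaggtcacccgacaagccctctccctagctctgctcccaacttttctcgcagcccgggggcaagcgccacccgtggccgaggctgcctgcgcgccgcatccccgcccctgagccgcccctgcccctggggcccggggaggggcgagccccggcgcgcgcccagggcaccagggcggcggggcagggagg
Itgb5: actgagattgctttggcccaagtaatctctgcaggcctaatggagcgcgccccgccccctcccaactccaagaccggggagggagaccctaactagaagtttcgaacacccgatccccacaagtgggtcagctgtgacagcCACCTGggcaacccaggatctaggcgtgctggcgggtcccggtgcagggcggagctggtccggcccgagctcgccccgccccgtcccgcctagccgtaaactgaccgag
Epcam: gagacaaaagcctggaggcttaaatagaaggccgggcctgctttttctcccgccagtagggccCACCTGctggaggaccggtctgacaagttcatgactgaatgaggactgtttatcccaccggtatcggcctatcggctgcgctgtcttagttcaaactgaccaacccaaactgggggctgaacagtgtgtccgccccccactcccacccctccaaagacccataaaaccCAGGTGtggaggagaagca
Cdh7: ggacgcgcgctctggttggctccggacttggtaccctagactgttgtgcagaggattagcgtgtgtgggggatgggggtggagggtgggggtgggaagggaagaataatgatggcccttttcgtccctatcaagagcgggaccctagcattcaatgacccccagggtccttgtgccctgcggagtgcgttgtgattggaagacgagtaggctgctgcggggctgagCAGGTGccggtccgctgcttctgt
Cdh8: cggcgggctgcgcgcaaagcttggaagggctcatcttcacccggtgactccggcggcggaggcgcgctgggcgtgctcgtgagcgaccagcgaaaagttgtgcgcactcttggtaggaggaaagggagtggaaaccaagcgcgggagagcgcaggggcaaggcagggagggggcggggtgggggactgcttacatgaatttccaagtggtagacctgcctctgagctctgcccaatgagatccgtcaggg
Epcam holds 2 matches, Itgb5 and Cdh7 hold 1 each, and Npnt and Cdh8 hold none in these windows. The second Npnt start of RefSeq, with the window chr3:132949815-132950064, has 2 matches. Among the 31 members with a promoter, 7 (22.6%) hold a match within 250 bases of the most upstream start, namely Cdh7, Epcam, Itga3, Itga9, Itga11, Itgb5 and Itgb8, against 4624 of the most upstream starts of 27026 genes (17.1%). With every start counted, Npnt and Itgb6 hold matches as well, and 5657 of all 32851 promoters do (17.2%).

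Whether the effect of T1 differed between the stages was tested with the stage by genotype interaction. The difference passed (adjusted p below 0.05) for 8 of 45 members, 4 toward a more positive and 4 toward a more negative effect at E18.5, against 3.94% and 4.22% of all genes (5.03% and 3.497% when scaled by library size alone). Those of Itga4, Cdh8 and Itgb5 held whichever library was left out. Itga4 fell at E14.5 and rose at E18.5, a difference of 3.93 ± 0.423 (adjusted p = 6.54e-05). Cdh8 rose more at E18.5 (1.84 ± 0.31, adjusted p = 0.00226). Itgb5 fell more at E18.5 (-1.59 ± 0.112, adjusted p = 1.48e-06). Macrophage markers had no call at E14.5, where their summed level was 24.4 to 122 CPM in WT and 51.8 to 108 CPM in T1, and 10 of 12 at E18.5, and their part in the turn of Itga4 was not tested.

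The other 5 stage differences depended on single libraries. That of Npnt (-0.74 ± 0.188, adjusted p = 0.0262) lost its call without E14.5 WT replicate 1 or 2, E14.5 T1 replicate 2, E18.5 WT replicate 2 or E18.5 T1 replicate 2 (adjusted p up to 0.0625). That of Itga1 (-1.10 ± 0.273, adjusted p = 0.0241) lost it without E14.5 T1 replicate 2, E18.5 WT replicate 2 or E18.5 T1 replicate 2 (up to 0.0569). That of Itga11 (0.69 ± 0.179, adjusted p = 0.0306) lost it in 7 of 12 leave-one-out fits, 4 of them without an E18.5 library (up to 0.126). That of Itga7 (-3.68 ± 0.983, adjusted p = 0.0348) held without E14.5 WT replicate 1, E14.5 T1 replicate 2 or E18.5 WT replicate 1 and was lost in the other 9 (up to 0.0845). That of Cdh1 (0.85 ± 0.243, adjusted p = 0.0472) held without E14.5 WT replicate 2 or E14.5 T1 replicate 3 and was lost in the other 10 (up to 0.136). Itga7, a laminin receptor subunit of muscle, read 0.078, 0.0571 and 0.00764 CPM in E14.5 WT and 0.599, 0.0409 and 0.804 in T1, so that 1 T1 library lay within the WT range and the other 2 above it. No stage difference was called for Itga8 (0.10, adjusted p = 0.722), Epcam (0.06, adjusted p = 0.9) or Itga3 (-0.40, adjusted p = 0.0979).

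In whole kidneys at E18.5 Itgb6, Itgb8 and Npnt were also lower in both mutants. The log2 fold changes were larger than in the sorted cells for Itgb8, about equal for Itgb6 and smaller for Npnt, a difference that was not tested. The T1 and T3 kidneys were compared with the same 2 WT libraries, so their agreement is not independent. Of 45 members tested (Cdh12 was too low), 4 rose and 4 fell in T1, against 2.88% and 4.88% of 23931 genes (medians -0.0040 over members and -0.013 over all genes), and 5 rose and 4 fell in T3, against 4.34% and 5.28% (medians 0.052 and -0.0021). Itgb8 read 60.7 and 49.9 CPM in WT, 21.4 and 24.9 CPM in T1 and 18.7 and 18.8 CPM in T3 (-1.26 ± 0.112, adjusted p = 0.000416, and -1.56 ± 0.114, adjusted p = 0.000146). Itgb6 read 70.9 and 61.0 CPM in WT, 24.8 and 30.01 in T1 and 26.6 and 24.4 in T3 (-1.27 and -1.37). Markers of the nephron fell in the same kidneys, in T1 and T3 respectively 7 and 7 of 7 for proximal tubule (2441 to 2735 CPM in WT and 387 to 490 in the mutants), 6 and 6 of 6 for podocytes (908 to 1029 and 277 to 297 CPM), 5 and 4 of 5 tested for distal tubule and loop (909 to 984 and 390 to 469 CPM) and 6 and 6 of 8 for nephron progenitors (323 to 381 and 157 to 188 CPM). Their part in the falls of Itgb6, Itgb8 and Npnt was not tested. Npnt read 920 and 1020 CPM in WT, 606 and 646 in T1 and 568 and 532 in T3 (-0.63 ± 0.0852 and -0.82 ± 0.0855, adjusted p = 0.00256 and 0.000672). Neither mutant overlapped with WT for these 3 genes. The T1 call of Npnt was lost without WT replicate 2 (-0.53, under 1.5-fold) or T1 replicate 1 (adjusted p = 0.0639). Ureteric tree markers, whose cells are a main source of Npnt and do not express the mutant, summed to 774 to 911 CPM in WT, 631 to 636 in T1 and 561 to 639 in T3, and their part in the fall of Npnt was not tested.

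Itgb5, the member that fell most in sorted Six2 cells at E18.5, read 112 and 129 CPM in WT, 84.0 and 87.0 in T1 and 84.4 and 76.6 in T3, with -0.50 ± 0.0807 in T1 (adjusted p = 0.00582, under 1.5-fold) and -0.59 in T3 (adjusted p = 0.00239). The T3 call was at the 1.5-fold limit and was lost in 9 of 14 alternatives: with DESeq2, RLE size factors, library size alone, the replicate block or 2 genotypes alone, and without WT replicate 2, T3 replicate 2 or either T1 library that shares the fit (changes from -0.46). Itga8 read 152 and 158 CPM in WT and 145 and 163 in T1, with overlap (-0.01 ± 0.0739). Cdh1 read 289 and 378 CPM in WT, 413 and 422 in T1 and 423 and 375 in T3, and neither difference passed the test (0.32, adjusted p = 0.149, and 0.26, adjusted p = 0.214). The 2 WT kidneys differed enough that Cdh1 in T1 was 0.15 higher without WT replicate 1 and 0.55 higher (adjusted p = 0.00279, under 1.5-fold) without WT replicate 2. Epcam (0.17 ± 0.0674), Cdh16 (0.19 ± 0.0947), Cdh6 (-0.08), Itga6 (-0.06) and Itgb1 (0.03) did not pass in T1 either. Cdh11 was higher by less than 1.5-fold in both mutants (0.35 and 0.33, adjusted p = 0.0159 and 0.0179).

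Of the 4 low type II cadherins that rose in sorted Six2 cells at E14.5, Cdh7 and Cdh8 rose in whole kidneys too, while Cdh9 (1.28 in T1 and 1.60 in T3, adjusted p = 0.281 and 0.153) and Cdh20 (-0.11 and -0.85, adjusted p = 0.937 and 0.385) did not pass. Cdh7 read 0.123 and 0.0922 CPM in WT, 1.46 and 1.52 in T1 and 2.66 and 2.39 in T3 (3.79 ± 0.236, adjusted p = 9.08e-05, and 4.55 ± 0.236, adjusted p = 3.86e-05). Summed over libraries these were 30 counts in WT, 408 in T1 and 555 in T3. Cdh8 read 0.676 and 1.21 CPM in WT, 4.79 and 4.22 in T1 and 7.24 and 7.39 in T3 (2.25 ± 0.241 and 2.95 ± 0.245). Cdh17, the intestinal LI-cadherin and not a classical one, read 0.154 and 0.0791 CPM in WT, 0.865 and 0.492 in T1 and 0.971 and 0.814 in T3 (2.56 and 2.95), while in the sorted cells at E18.5 it read -0.04 and did not pass. Both mutants lay above WT in every library for the 3 genes. Itga11 rose in both (0.66 and 0.81, the former call lost without T1 replicate 1 at adjusted p = 0.0834), Itga4 in T3 (0.63, lost without WT replicate 2 or T3 replicate 1, with changes from 0.52), and Cdh15 fell in T1 (-1.35, adjusted p = 0.028, held without WT replicate 1 and lost in the other 5 leave-one-out fits at up to 0.209). Skeletal muscle markers moved beside Cdh15, 4 of 7 tested lower, from 37.6 to 87.4 CPM in WT to 24.7 to 25.1 CPM in T1, and their part was not tested.

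**Figure D3:**
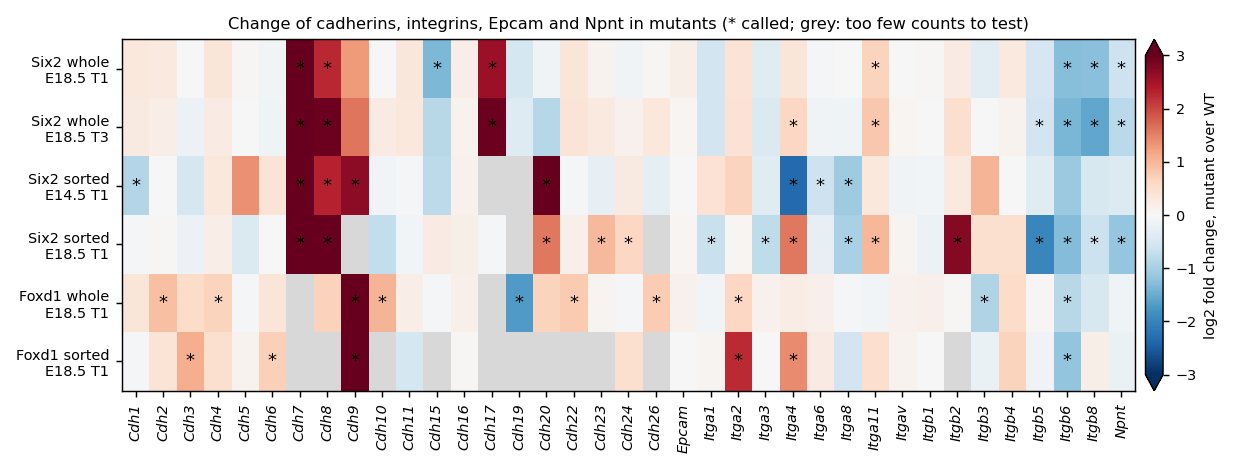
Log2 fold change, mutant over WT, of the members called in any comparison and of the main epithelial and mesenchymal members, in rows for each comparison; red is higher and blue lower in the mutant, colors stop at 3 in either direction, stars mark calls and grey marks members with too few counts to test. Cdh7 and Cdh8 are starred in the 4 Six2 rows, Cdh9 in both Foxd1 rows and in sorted Six2 cells at E14.5, and Itgb6 in every row but sorted Six2 cells at E14.5.

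In sorted Foxd1 cells Cdh11, the main stromal cadherin, was lower by less than 1.5-fold, and Cdh9, Cdh3, Cdh6, Itga2 and Itga4 rose. Of 30 members tested, 5 rose and 1 fell, against 3.63% and 2.18% of 12717 genes, with medians of 0.13 over the members and -0.0040 over all genes. Untested were Cdh7, Cdh8, Cdh10, Cdh12, Cdh13, Cdh15, Cdh17, Cdh18, Cdh19, Cdh20, Cdh22, Cdh23, Cdh26, Itga10, Itgb2 and Itgb7. In WT stroma Cdh11 held 58% of the summed cadherin level (48.4 ± 0.61 CPM per kb, n = 4), followed by Cdh5 (10.2) and Cdh16 (9.53), the markers of endothelium and of tubule, and Itga9 (25.1) and Itga8 (20.3) led the alpha subunits. Endothelial markers summed to 278 to 522 CPM in WT and 359 to 464 in T1.

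Cdh11 read 427, 434, 437 and 425 CPM in WT and 327, 296, 284 and 286 CPM in T1. The groups did not overlap, and the difference passed the p threshold but not 1.5-fold (-0.53 ± 0.0651, adjusted p = 1.81e-05). Its share of the summed cadherin level was 41.4% in T1 (33.5 CPM per kb). Itga8 read 169, 146, 139 and 145 against 120, 92.1, 90.3 and 103 CPM (-0.57 ± 0.093, adjusted p = 0.000423), also under 1.5-fold and without overlap. Among the other cadherins, Cdh3 and Cdh6 rose. Cdh3 read 13.1, 16.95, 11.7 and 12.3 CPM in WT and 28.0, 30.6, 26.6 and 30.4 in T1 (1.08 ± 0.144, adjusted p = 4.13e-05), and Cdh6 33.9, 34.2, 27.0 and 39.1 against 61.3, 54.5, 48.2 and 56.2 CPM (0.71 ± 0.113, adjusted p = 0.00032). The epithelial genes Cdh1 (-0.07 ± 0.214) and Epcam (-0.02 ± 0.237) did not pass, nor did Npnt (-0.19 ± 0.161) or Itgb5 (-0.10 ± 0.0918), Itga3 (-0.02), Itga6 (0.25), Itgav (0.11), Itgb1 (-0.02), Itgb4 (0.67) and Itgb8 (0.17). At this depth Cdh1 rested on 10.01 to 13.3 CPM in T1, so a small change was not detectable.

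Cdh9, a type II cadherin, was all but absent from WT stroma, with 0, 0.292, 0 and 0 CPM from 1 count in the 4 libraries, and read 11.1, 12.3, 6.48 and 9.04 CPM in T1 from 113 counts. The ratio of the summed levels was 120, with a 95% interval for counting error of 21.0 to 4765 because the WT sum is a single count, and the fitted change was 6.31 ± 0.552 (adjusted p = 3.8e-07). Cdh9 passed the count filter through the T1 libraries only, so it could only be called higher. Itga2, a collagen receptor subunit, read 5.00, 3.80, 5.64 and 3.25 CPM in WT and 25.5, 18.9, 20.9 and 18.7 in T1 (2.24 ± 0.205, adjusted p = 6.01e-07). Itga4 read 16.7, 13.2, 11.3 and 12.3 against 37.3, 39.2, 33.8 and 33.6 CPM (1.41 ± 0.139, adjusted p = 1.47e-06). For all 3 genes every T1 library exceeded every WT library. Macrophage markers rose beside Itga4, 6 of 12 of them, from 149 to 383 CPM in WT to 314 to 441 CPM in T1, and the part of macrophages was not tested. Itgb6 was the 1 member that fell (8.33, 7.89, 7.66 and 4.34 against 5.17, 1.33, 2.52 and 3.55 CPM, -1.19 ± 0.331, adjusted p = 0.0265). Proximal tubule markers (115 to 289 CPM in WT and 57.2 to 95.7 in T1, 4 of 6 tested lower) and distal tubule and loop markers (35.1 to 88.9 and 13.0 to 36.2 CPM, 2 of 4 tested lower) fell beside it, and their part was not tested. Its libraries overlapped, and the call held without WT replicate 4 or T1 replicate 1 and was lost in the other 6 leave-one-out fits (adjusted p up to 0.109). Of the untested members, Cdh10 read 1.11, 0, 0.806 and 0.362 CPM in WT and 4.06, 3.32, 3.24 and 2.91 in T1.

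**Figure D4:**
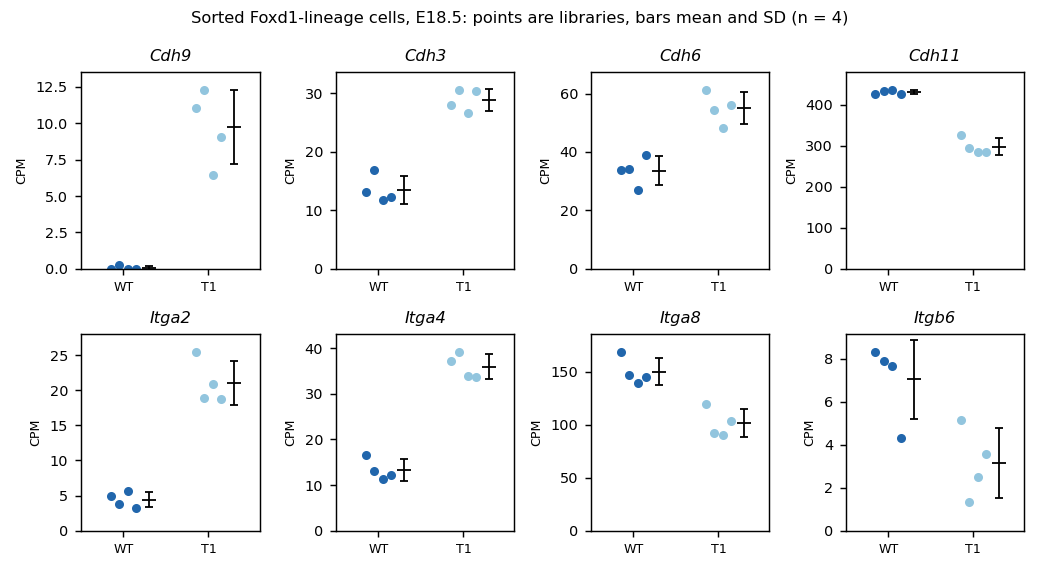
CPM of 8 members in each library of sorted Foxd1-lineage cells at E18.5; points are libraries and bars the mean with SD (n = 4 for each genotype). Cdh9, Cdh3, Cdh6, Itga2 and Itga4 are higher in every T1 library than in any WT library, Cdh11 and Itga8 are lower, and the Itgb6 libraries overlap.

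Whole Foxd1 kidneys, in which stroma is diluted by cells that do not express the mutant, showed Cdh9 and Itga2 again, together with a rise of Cdh2 and Cdh4. Of 42 members tested (Cdh7, Cdh12, Cdh17 and Cdh18 were too low), 7 rose and 3 fell, against 2.65% and 7.53% of 20145 genes, with medians of 0.13 over the members and -0.0034 over all genes. Cdh9 read 0.0263, 0.0128 and 0.0268 CPM in WT and 1.29, 0.996 and 1.22 in T1, from 5 and 250 counts, a ratio of 53.3 (22.5 to 165). Here too Cdh9 passed the count filter through the T1 libraries only, which fixed the direction of its call. Itga2 read 12.2, 13.8 and 13.7 against 19.3, 22.0 and 19.6 CPM (0.62 ± 0.0813, adjusted p = 7.81e-05), under 1.5-fold without WT replicate 1 (0.56) or T1 replicate 2 (0.56). Cdh2 read 38.2, 38.3 and 39.6 against 75.7, 72.4 and 69.4 CPM (0.91 ± 0.0546, adjusted p = 9.99e-08), and Cdh4 49.8, 49.1 and 46.7 against 78.4, 79.4 and 73.2 CPM (0.67 ± 0.0551, adjusted p = 1.32e-06). In the sorted Foxd1 cells neither gene passed the test (0.41, adjusted p = 0.16, and 0.48, adjusted p = 0.0776). Nephron progenitor markers, from cells outside the Foxd1 lineage, rose in the same kidneys, 6 of 8 of them, from 508 to 545 CPM in WT to 769 to 942 CPM in T1, and their part in the rise of Cdh2 and Cdh4 was not tested.

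Itgb6 fell in the whole Foxd1 kidneys from 52.6, 51.6 and 54.2 to 26.1, 31.4 and 32.0 CPM (-0.82 ± 0.073, adjusted p = 2.45e-06), and Itgb3, a vitronectin receptor subunit of vessels and platelets, from 9.91, 11.5 and 9.44 to 5.81, 5.79 and 5.03 CPM (-0.89 ± 0.112, adjusted p = 5.24e-05), both without overlap. Proximal tubule markers stood at 2624 to 2753 CPM in WT and 1177 to 1519 in T1 (6 of 7 fell), and distal tubule and loop markers at 867 to 952 and 439 to 596 CPM (3 of 5 tested fell). Ureteric tree markers stood at 964 to 1107 and 714 to 778 CPM, with 2 of 10 higher and 2 lower, and endothelial markers at 1134 to 1242 and 909 to 1001 CPM, with 2 of 10 lower. The part of these cells in the fall of Itgb6 and Itgb3 was not tested. Cdh1 (0.37 ± 0.0633, adjusted p = 0.000634), Cdh3 (0.56 ± 0.0512, adjusted p = 3.3e-06) and Cdh6 (0.36 ± 0.0509, adjusted p = 0.000145) were higher by less than 1.5-fold. Cdh22 rose by 0.78 (adjusted p = 0.00105). Cdh10, Cdh26 and Cdh19 passed (1.02, 0.75 and -1.71) but did not hold in most leave-one-out fits. Cdh10 kept its call without T1 replicate 2 or 3 only, Cdh26 without WT replicate 2 only and Cdh19 without T1 replicate 1 only, with adjusted p up to 0.128, 0.163 and 0.12 in the others, and Cdh19 rested on 57 counts in WT and 16 in T1. Epcam (0.13), Cdh16 (0.16), Cdh5 (-0.06), Itga8 (-0.04), Itga3 (0.12), Itga6 (0.14), Itgav (0.13) and Npnt (-0.14) did not pass, and Itgb1 (0.16), Itgb4 (0.55), Itgb8 (-0.49) and Cdh11 (0.20) passed the p threshold under 1.5-fold.

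The lineage by genotype interaction asked whether T1 acted differently in sorted Foxd1 and Six2 cells at E18.5. Per the study's methods the lineages were sequenced at different read lengths, and their depths differed too, so lineage and sequencing cannot be told apart. It passed for 14 of 35 members tested, 11 toward a more positive and 3 toward a more negative effect in Foxd1 cells, against 8.25% and 7.63% of 14869 genes (6.29% and 10.5% when scaled by library size alone). The median difference was 0.26 over the members and -0.013 over all genes. Itgb5, which fell in Six2 cells, differed by 1.85 (adjusted p = 1.77e-09), Itga3 by 0.73 (0.000769), Itga1 by 0.74 (0.00106) and Npnt by 0.94 (0.00214). Itga2 differed by 2.16 (adjusted p = 3.78e-06), Cdh3 by 1.24 (3.39e-05), Cdh6 by 0.71 (0.0013) and Cdh10 by 3.29 (0.00464), all more positive in Foxd1 cells. Cdh8 differed by -4.81 (adjusted p = 0.0012), from 10 counts over the 4 WT and 6 over the 4 T1 Foxd1 libraries, Itga9 by -0.74 (5.32e-05) and Cdh11 by -0.47 (0.00603). Itga8, lower in T1 in both lineages, had no called difference (0.38, adjusted p = 0.0624). The differences of Cdh13 (1.16, adjusted p = 0.0434), Itga7 (1.02, 0.0395) and Itga6 (0.49, 0.0366) were lost in 12, 11 and 9 of 14 leave-one-out fits, with adjusted p up to 0.105, 0.0965 and 0.116. Cdh9, called in the Foxd1 cells, was too low in Six2 cells for a call of the difference (4.24 ± 2.22, adjusted p = 0.228). Epcam (-0.10) and Cdh1 (-0.05) had no called difference.

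**Figure D5:**
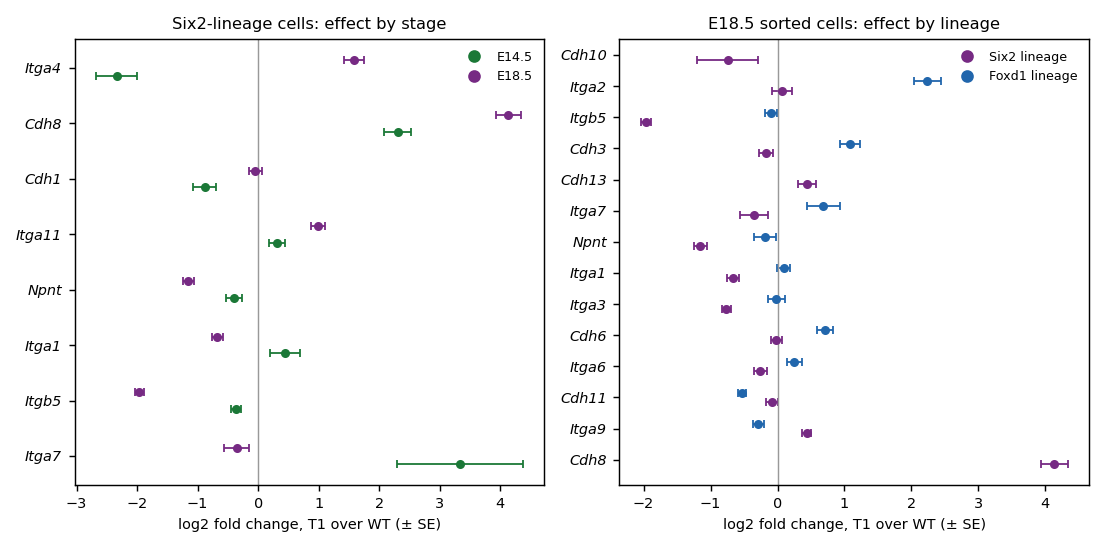
Log2 fold change of T1 over WT (± SE) for the members whose effect differed between stages in sorted Six2 cells (left) and between lineages at E18.5 (right); a member without a blue point had too few counts in the Foxd1 table for a fold change of its own. Itga4 lies on opposite sides of 0 at the stages, and Itgb5 is near 0 in Foxd1 cells and at -1.97 in Six2 cells.

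Genes that work with the members were counted in the same way. Shares of all genes called higher and lower were 4.11% and 2.28% in sorted Six2 cells at E14.5 and 6.14% and 5.54% at E18.5. They were 3.63% and 2.18% in sorted Foxd1 cells, 2.88% and 4.88% in whole Six2 T1 kidneys, 4.34% and 5.28% in T3 kidneys, and 2.65% and 7.53% in whole Foxd1 kidneys. Among the 12 catenins and cadherin partners none was called in whole Six2 T1 or T3 kidneys, in sorted Six2 cells at E14.5 (11 tested) or in sorted Foxd1 cells (9 tested), Nectin1 fell in sorted Six2 cells at E18.5 (-0.59) and 1 gene rose in whole Foxd1 kidneys. Of the 20 cytoplasmic integrin partners 3 rose (Tln2, Fermt3 and Parvb) and 3 fell (Fermt1, Parva and Lims2) in sorted Six2 cells at E18.5, and none was called at E14.5 or in sorted Foxd1 cells (17 tested). Integrin ligands of the matrix had 5 higher and 7 lower of 26 in sorted Six2 cells at E14.5, and 7 higher and 4 lower of 27 at E18.5. Fibronectin (Fn1), which alpha4, alpha5, alpha8 and alphav pairs can bind, rose in both (0.64 and 1.01), as did Lama2 (1.47 and 2.59) and Nid1 (0.82 and 0.74). Tenascin-C (Tnc), bound by alpha8, alpha9 and alphav pairs, fell in both (-1.08 and -1.34), and vitronectin (Vtn) fell at E14.5 (-1.86). Osteopontin (Spp1) fell at E18.5 (-1.99) and in sorted Foxd1 cells (-1.34), where 5 of 25 ligands rose, Fn1 among them (0.74), and 2 fell. These lists were not tested as sets.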

How the data were processed

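RNA sequencing counts per gene were used from 4 tables: whole and sorted material of the Six2 and Foxd1 lineages. Per the study's methods, the authors made mRNA libraries from whole kidneys and SMART-Seq libraries from sorted cells, aligned reads to mm10 with HISAT2, counted them with HTSeq in its unstranded mode, and deposited the raw counts. Unstranded counts cannot separate overlapping genes, and the annotation release is not given in the sources used here. Identifiers were joined to GENCODE vM21 (55536 of 55806 matched).

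Genes with too few counts (edgeR filterByExpr, minimum count 10, minimum total 15) were left out, libraries were scaled by TMM, and edgeR 4.0.16 (quasi-likelihood test, R 4.3.3) was run over all genes of a table with Benjamini-Hochberg adjustment. Between 2 genotypes, a gene under this filter in every library of 1 genotype was tested only through the other. The direction of its call was then fixed in advance. A genotype call needed adjusted p below 0.05 and more than 1.5-fold, a call between stages adjusted p below 0.01 and more than 2-fold, and an interaction adjusted p below 0.05. CPM values were computed from TMM-scaled library sizes, and SE is the log2 fold change over the root of the F statistic. Low counts were compared by an exact interval for counting error only, with a floor of 3 counts. The scripts were tested on simulated data. Alternatives were DESeq2 1.42.0, the edgeR exact test, other scalings, filters and thresholds, a replicate block and leaving out each library. Members named in every comparison were the main epithelial and mesenchymal cadherins, Epcam, Npnt and the main integrin subunits, plus every member called. Members and lists were chosen with earlier results of these data known. Promoters came from RefSeq.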

Additional observations from a re-analysis of the deposited data

Results flagged for a closer look

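In the sorted Foxd1 cells, 42 groups of 4 libraries (21 members) were searched for a library far from the other 3 by Dixon's gap ratio at its 95% critical value, which chance passes in about 1 in 20 groups, and 3 groups passed. Cdh1 read 13.3 CPM in T1 replicate 1, while the other T1 libraries lay between 10.01 and 10.4 CPM. Cdh9 read 0.292 CPM, a single count, in WT replicate 2 and 0 in the other WT libraries. Itgb6 read 4.34 CPM in WT replicate 4 and 7.66 to 8.33 CPM in the others.

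The effect of T1 differed between E14.5 and E18.5 in sorted Six2 cells, by the interaction test, for Itga4 (difference in log2 fold change 3.93), Cdh8 (1.84), Cdh1 (0.85) and Itga11 (0.69), which were more positive at E18.5, and for Itgb5 (-1.59), Npnt (-0.74), Itga1 (-1.10) and Itga7 (-3.68), which were more negative. Those of Itga4, Cdh8 and Itgb5 held in all 12 leave-one-out fits.

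Between lineages at E18.5 the effect was more positive in Foxd1 than in Six2 cells for Cdh3 (1.24), Cdh6 (0.71), Cdh10 (3.29), Cdh13 (1.16), Itga1 (0.74), Itga2 (2.16), Itga3 (0.73), Itga6 (0.49), Itga7 (1.02), Itgb5 (1.85) and Npnt (0.94). It was more negative for Cdh8 (-4.81), Cdh11 (-0.47) and Itga9 (-0.74). Podocyte markers, 6 of 6, also differed in the positive direction and 9 of 12 macrophage markers in the negative direction, and their part in these differences was not tested.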

How the results depend on the processing

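Over the named members in all 9 comparisons, 2123 values under another setting and 2457 values without 1 library kept their call and its direction or, where not called, moved by less than their SE, 32 and 136 lost a call, 60 and 42 gained one, and 39 and 130 values without a call moved by more than that. In 1 more, without 1 library, the direction turned and the value was called (Cdh20 in whole Six2 T1 kidneys). Counts of called members moved by over 1.5 times in 3 cases under another setting: without the fold threshold from 8 to 13 in whole Six2 T1 kidneys and from 10 to 20 in whole Foxd1 kidneys, and without the low-count filter from 6 to 10 in sorted Foxd1 cells. Leaving out 1 library gave 5 to 10 called members in whole Six2 T1 kidneys, 8 to 12 in T3 kidneys, 7 to 9 and 13 to 16 in sorted Six2 cells at E14.5 and E18.5, 5 to 7 in sorted and 6 to 10 in whole Foxd1 kidneys, 25 to 29 between stages, 3 to 8 for the stage interaction and 11 to 16 for the lineage interaction. The lowest counts came without T1 replicate 1 (whole Six2), WT replicate 1 (whole Foxd1) and E18.5 WT replicate 2 (stage interaction). Cdh20 in whole Six2 T1 kidneys, -0.11 with all libraries, ran from -0.79 without WT replicate 1 to 1.33 without WT replicate 2 (adjusted p = 0.0377), the library in which it read 1.25 CPM against 0.292 CPM in the other. Beside the losses given with the results, library size alone took Npnt in whole Six2 T1 kidneys (-0.56), Itga6 at E14.5 (-0.58) and Itga1 and Itgb8 at E18.5 (-0.58 and -0.55) under 1.5-fold, and ended the stage call of Cdh20 and the lineage calls of Cdh13, Itga6 and Itga7 (adjusted p = 0.0106, 0.0666, 0.0755 and 0.0604). RLE size factors ended the stage interaction of Cdh1 (0.058) and DESeq2 the lineage call of Cdh13 (0.0699). Without the low-count filter Cdh19 in whole Foxd1 kidneys (0.0519) and the lineage calls of Cdh13 and Itga7 (0.117 and 0.09) were lost, and with 2 genotypes alone Cdh15 in T1 kidneys (0.0524). The cause of the other changes was not tested.

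A replicate block was fitted although the numbers do not pair the samples: deviations of same-numbered libraries correlated at -0.079 to 0.139. With the block 7 and 8 members were called in whole Six2 T1 and T3 kidneys, 8 and 15 in sorted Six2 cells at E14.5 and E18.5, 6 in sorted and 9 in whole Foxd1 kidneys, 25 between stages, 7 for the stage interaction and 13 for the lineage interaction. The block ended the calls of Cdh15 in T1 kidneys (adjusted p = 0.0519), Cdh19 in whole Foxd1 kidneys (0.055), Cdh17 and Cdh20 between stages (0.0137 and 0.0128), Cdh1 and Itga7 for the stage interaction (0.0627 and 0.0801) and Cdh13 and Itga7 for the lineage interaction (0.0616 and 0.0535), beside those of Itga4 and Itgb5 given with the results. Depth limits the sorted Foxd1 cells, where 16 of 46 members could not be tested.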

Other observations

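Several of the type II cadherins that moved lie near other cadherin genes (GRCm38), and the neighbors did not all move with them. On chromosome 1, Cdh20 (104768529 to 104995481, plus strand) and Cdh7 (109982431 to 110140157, plus) both rose in sorted Six2 T1 cells at E14.5, by 3.73 and 6.14 on the log2 scale, while the third gene of that stretch, Cdh19 (110888326 to 110977584, minus), had too few counts to test. On chromosome 15, Cdh9 (16728756 to 16857094, plus) rose by 5.63 in whole Foxd1 T1 kidneys. Its neighbor Cdh6 (13028701 to 13173675, minus) read 0.36, past the p threshold but under 1.5-fold. Cdh10 (18818947 to 19014236, plus) was called at 1.02, and Cdh12 and Cdh18 were too low to test. In sorted Foxd1 cells Cdh9 rose by 6.31 and Cdh6 by 0.71. Cdh10 was untested there but higher in every T1 library than in any WT library. On chromosome 8, Cdh8 (99024471 to 99416471, minus) rose by 4.14 in sorted Six2 T1 cells at E18.5, and the next cadherin gene, Cdh11 (102632095 to 102785642, minus), read -0.08 and did not pass. These neighbors were looked at after their values were known, and whether position bears on the changes was not tested.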
